A study of Caenorhabditis elegans with 6 samples.

Results

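The 32 genes described here encode parts of the machinery with which neurons release transmitters and neuropeptides in the nematode Caenorhabditis elegans. They were taken by name as pan-neuronal, vesicle release, peptide processing and transmitter genes, and all 32 had a row among the 20894 rows of the expression table. RNA was sequenced from whole worms, labelled as adults, fed on Escherichia coli OP50, the usual laboratory food. The 2 genotypes were N2, the wild-type strain, and bcf-1(ylf1), a mutant of bcf-1, a gene that the series title describes as encoding an intestinal glycoprotein that binds bacteria. Each genotype had 3 libraries that the series design describes as independent biological replicates. The labels state neither what the ylf1 allele changes nor whether the mutant strain was outcrossed, and only 1 allele was profiled.

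At a chemical synapse, vesicles are loaded with transmitter by transporters of the vesicle membrane, carried along the axon by kinesin motors, and docked at the active zone. A vesicle SNARE then pairs with plasma membrane SNAREs, priming factors ready the complex, and calcium entering through voltage-gated channels triggers fusion through synaptotagmin, after which the membrane is retrieved by endocytosis. Neuropeptides take a separate route: they are cut from precursors inside dense core vesicles and released away from the active zone.

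The deposited values were read as FPKM, a unit in which fragment numbers are divided by transcript length and by library size. They summed to between 659249 and 687573 per library. The depth behind them is unknown. The targeted gene bcf-1 stood at 374, 412 and 499 FPKM in N2 and at 63.7, 72.1 and 60.01 FPKM in the mutant. Of 13576 genes tested, 34.6% were higher and 15.0% were lower in the mutant (limma with Benjamini-Hochberg adjustment over all tested genes, adjusted p under 0.05), 49.6% in all, and the middle log2 change over these genes was 0.24. Without mutant replicate 1 or mutant replicate 3 the higher genes numbered 2877 and 3002, against 4703 with all 6 libraries. Markers of other tissues and of stage moved with genotype as well. The 10 adult stage markers, yolk protein and adult cuticle collagen genes, were all lower, and their summed level was 3620.2 to 6295 FPKM in N2 and 28.0 to 70.3 FPKM in the mutant. Of 20 moulting genes, 17 were higher, with sums of 424 to 654 FPKM in N2 and 1849 to 2007 FPKM in the mutant. Of 17 tested pharynx markers, 15 were higher (sums of 721 to 887 and 1223 to 1387 FPKM), and of 8 tested glia markers, 6 were higher and 1 was lower (sums of 46.1 to 49.996 and 90.1 to 92.7 FPKM). Of 20 body wall muscle markers, 9 were higher (sums of 6364 to 7629 and 6881 to 7396 FPKM). Of 16 tested intestine markers, 2 were higher and 9 lower (sums of 7204 to 9461 and 9481 to 11419.7 FPKM), and of 20 germline markers 6 were higher (sums of 804 to 1492 and 1354 to 1427 FPKM). No marker in these 7 lists was at 0 in all 6 libraries. Adult stage markers and moulting genes shifted together with genotype, so a difference in stage cannot be told apart from genotype in the results below. The part of all these marker shifts in those results was not tested. In whole animals, a change in the number or share of neurons and a change in RNA per neuron cannot be told apart.

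Of the 32 synaptic genes, 13 rose in the mutant: unc-13, egl-30, unc-2, unc-10, syd-2, sng-1, unc-31, unc-17, cha-1, unc-25, cat-1, cat-2 and rgef-1. With 31 genes tested, that is 41.9%, beside 34.6% of all tested genes, and the difference between these shares is not a result about the synaptic genes. None of the 31 fell, at an adjusted or at an unadjusted limma p under 0.05 (0 in each case), while 15.0% of all tested genes did. For the 31, the middle log2 change was 0.29, which is 0.05 above the median of all genes tested, and 20 of the 31 lay above that median. Genes were tested where at least 3 libraries reached 1 FPKM. cat-1 and cat-2 did so only through the mutant libraries, so they had to be higher to be tested, and tph-1 was not tested. With no filter all 32 were tested and 14 rose, and with a filter on the mean over the 6 libraries 30 were tested and 12 rose. Leaving out mutant replicate 1 brought the rises down to 7, and leaving out mutant replicate 3 to 8, with 29 genes tested in each case.

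**Figure D1:**
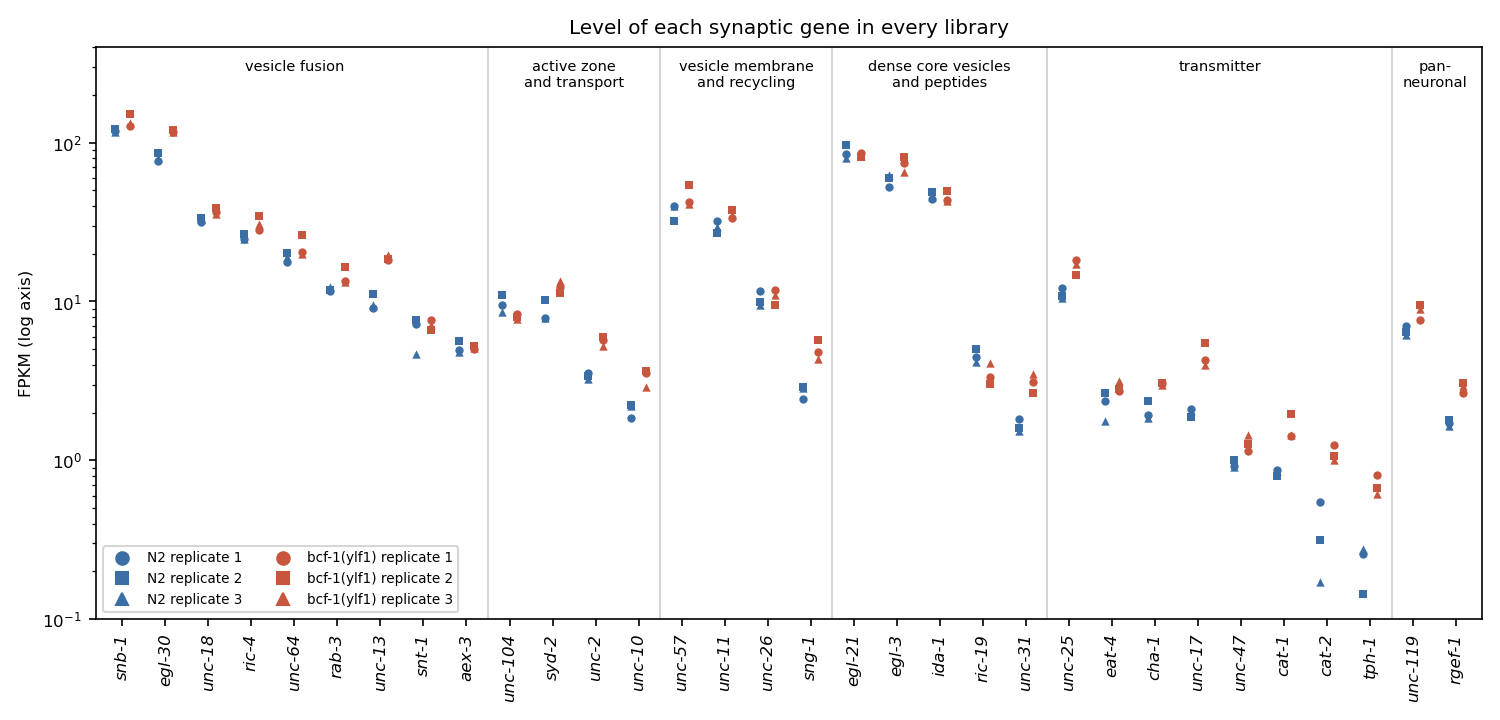
FPKM on a log axis for each of the 32 genes in each library, grouped by role, with N2 in blue and bcf-1(ylf1) in red and a symbol for each replicate. The 3 mutant libraries lie above the 3 N2 libraries in 24 genes, below them in unc-104 and ric-19, and overlap with them in 6.

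The mutant libraries all lay above the N2 libraries in 24 of the 32 genes and all below them in 2, where these shares are 40.4% and 18.0% over all tested genes. Among the 24 are cat-1 and cat-2, which had to be higher to be tested, and tph-1, which was not tested. These counts were taken on the deposited values, before any scaling, and whether the shares differ was not tested. The 32 genes spanned a wide range of levels. In N2 the highest mean was that of snb-1 at 118.8 ± 2.17 FPKM (SD, n = 3), followed by egl-21 at 87.6 ± 8.35 FPKM and egl-30 at 80.8 ± 5.18 FPKM, the last 2 with overlapping libraries. The lowest were cat-2 at 0.344 ± 0.190 FPKM and tph-1 at 0.226 ± 0.0715 FPKM, enzymes made in a few neurons of the animal. In the mutant egl-30 moved above egl-21, at 118 ± 2.04 against 83.1 ± 2.68 FPKM, and snb-1 stayed highest and tph-1 lowest.

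**Figure D2:**
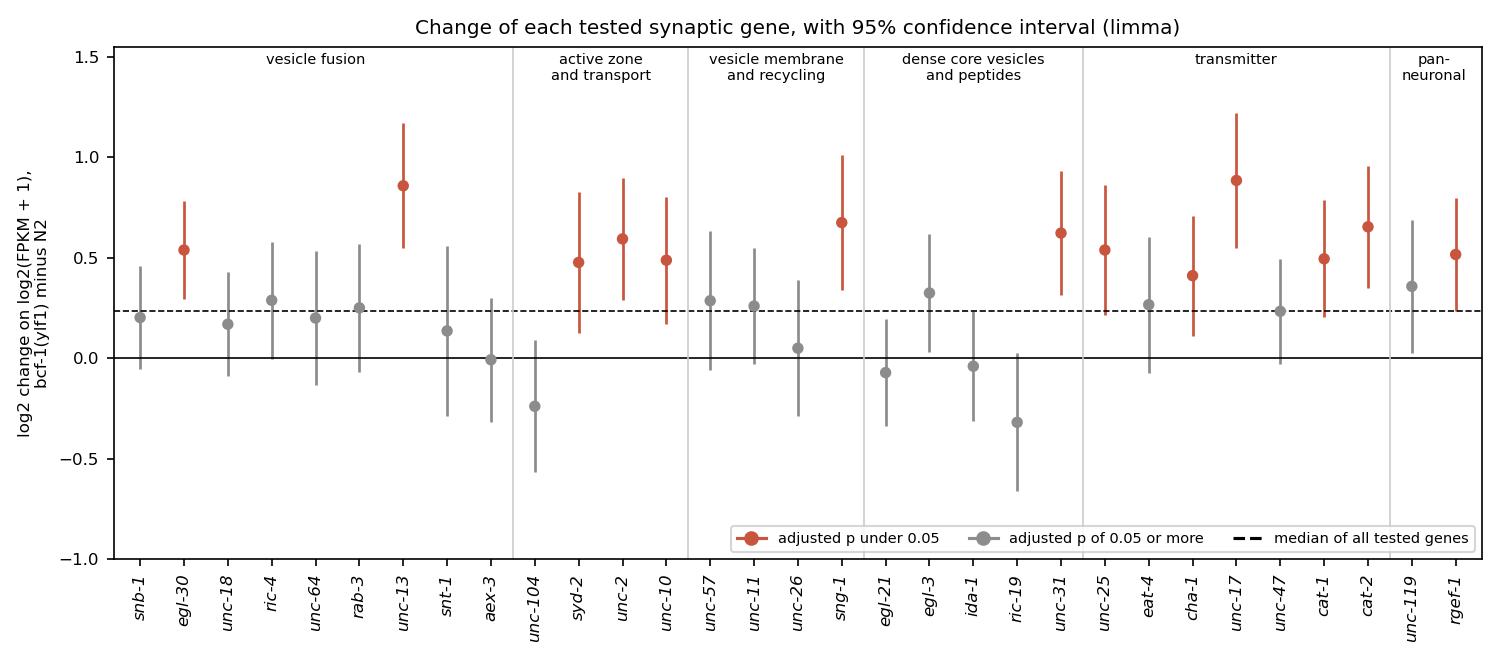
Log2 change of the 31 tested genes on the log2(FPKM + 1) scale, mutant minus N2, with limma 95% confidence intervals, grouped by role; red marks an adjusted p under 0.05 and the dashed line the median of all tested genes at 0.24. The changes run from -0.32 for ric-19 to 0.89 for unc-17.

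Among the 9 genes of vesicle fusion, unc-13 and egl-30 rose and the SNARE genes did not pass the test. unc-13 (chromosome I, 7422785 to 7454116, WBcel235) encodes the priming factor that readies docked vesicles. It stood at 9.09, 11.1 and 9.51 FPKM in N2 and at 18.2, 18.4 and 19.6 FPKM in the mutant. The groups lay well apart, and the mutant mean was 1.89-fold higher, with a log2 change of 0.86 (SE 0.14, limma adjusted p = 0.000944). egl-30 (chromosome I, 1835661 to 1841965) encodes the Gq alpha subunit that promotes release and is also used in other tissues. Its N2 libraries were at 76.2, 86.4 and 79.8 FPKM and its mutant libraries at 117, 119.9 and 115.9 FPKM, again without overlap. The mutant mean was 1.46-fold higher (log2 change 0.54, SE 0.11, limma adjusted p = 0.00331).

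The 3 SNARE genes lay close to the median of all tested genes. snb-1, the vesicle SNARE synaptobrevin (chromosome V, 6655562 to 6656501), was at 118, 121 and 117 FPKM in N2 and at 127, 151 and 133 FPKM in the mutant. The mutant libraries were all higher, by 1.16-fold on average, but the log2 change of 0.20 (95% confidence interval -0.05 to 0.46) did not pass the test (limma adjusted p = 0.164). The plasma membrane SNARE genes unc-64, syntaxin, and ric-4, SNAP-25, had log2 changes of 0.20 (-0.13 to 0.53) and 0.29 (-0.0024 to 0.58), with limma adjusted p-values of 0.285 and 0.0906. unc-64 overlapped between genotypes, at 17.7 to 20.2 FPKM in N2 and 19.9 to 26.1 FPKM in the mutant, and ric-4 did not, at 24.6 to 26.5 and 28.3 to 34.7 FPKM. In all 3 genes the highest library was mutant replicate 2.

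The other genes of this step were as close to the median of all tested genes, or below it. unc-18, which encodes the syntaxin-binding Munc18 protein, was at 31.4 to 33.6 FPKM in N2 and 35.5 to 38.6 FPKM in the mutant (log2 change 0.17, limma adjusted p = 0.247). rab-3, the vesicle Rab, was at 11.6 to 12.3 and 13.3 to 16.5 FPKM (0.25, limma adjusted p = 0.165). The calcium sensor gene snt-1 overlapped, at 4.68 to 7.67 and 6.61 to 7.66 FPKM, with N2 replicate 3 lowest (0.14, limma adjusted p = 0.571). aex-3, whose product activates RAB-3, had a log2 change of -0.01 (95% confidence interval -0.32 to 0.30, limma adjusted p = 0.970). After median-ratio scaling, which brings the median change of all tested genes to -0.01, snb-1, unc-64, unc-18, rab-3 and snt-1 all had changes between -0.10 and -0.0025 and ric-4 stayed at 0.03, while the call of egl-30 was lost (log2 change 0.27, limma adjusted p = 0.122).

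Of the 4 genes of the active zone and axonal transport, unc-2, unc-10 and syd-2 rose, and unc-104 went the other way. unc-2 (chromosome X, 2710920 to 2763526), the pore subunit of the presynaptic calcium channel, was at 3.52, 3.38 and 3.27 FPKM in N2 and at 5.73, 5.95 and 5.22 FPKM in the mutant. Its libraries were tightly grouped in each genotype, with the mutant 1.66-fold higher (log2 change 0.59, SE 0.13, limma adjusted p = 0.00582). The scaffold gene unc-10, RIM (chromosome X, 7272317 to 7280322), was at 1.86, 2.24 and 2.21 FPKM in N2 and 3.55, 3.64 and 2.88 FPKM in the mutant, with mutant replicate 3 nearest to N2 (log2 change 0.49, SE 0.14, limma adjusted p = 0.0180). syd-2, the active zone organiser liprin-alpha (chromosome X, 10549106 to 10555239), was at 7.85, 10.2 and 7.87 FPKM in N2 and 12.4, 11.4 and 13.4 FPKM in the mutant. N2 replicate 2 lay close to the mutant range without entering it (log2 change 0.48, SE 0.15, limma adjusted p = 0.0303).

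unc-104, the KIF1A kinesin that carries vesicle precursors along axons (chromosome II, 6994987 to 7010625), was at 9.49, 10.97 and 8.60 FPKM in N2 and at 8.39, 7.95 and 7.72 FPKM in the mutant. All mutant libraries were lower, yet the log2 change of -0.24 (95% confidence interval -0.57 to 0.09) did not pass the test (limma adjusted p = 0.199). After median-ratio scaling it did, at -0.48 (limma adjusted p = 0.0257), while the calls of unc-2, unc-10 and syd-2 were lost there (limma adjusted p = 0.0534, 0.162 and 0.273). The call of unc-10 was also lost without mutant replicate 1 or 2 (limma adjusted p = 0.0842 and 0.0578), and that of syd-2 without N2 replicate 1 or 3 or mutant replicate 1 or 3 (limma adjusted p = 0.0501, 0.102, 0.104 and 0.121).

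Of the 4 genes of the vesicle membrane and its recycling, sng-1 rose. sng-1 encodes synaptogyrin, a membrane protein of synaptic vesicles (chromosome X, 7327601 to 7329705). It was at 2.42, 2.90 and 2.86 FPKM in N2 and at 4.83, 5.71 and 4.36 FPKM in the mutant. The mutant mean was 1.82-fold higher, with no overlap (log2 change 0.68, SE 0.15, limma adjusted p = 0.00510). The endocytic genes did not pass the test. unc-11, the AP180 adaptor that retrieves synaptobrevin, was at 26.8 to 32.2 FPKM in N2 and 33.5 to 37.7 FPKM in the mutant (log2 change 0.26, limma adjusted p = 0.117, and 0.0414 without N2 replicate 1, where the change was 0.32). unc-57, endophilin, was at 31.98 to 40.2 and 41.1 to 53.9 FPKM (0.29, limma adjusted p = 0.149), with mutant replicate 2 again highest. unc-26, the phosphatase synaptojanin, overlapped at 9.49 to 11.7 and 9.56 to 11.7 FPKM (0.05, limma adjusted p = 0.797).

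Among the 5 genes of dense core vesicles and peptide processing, unc-31 rose and the others split around zero. unc-31 (chromosome IV, 12773867 to 12788354) encodes CAPS, which acts in dense core vesicle release. It was low, at 1.81, 1.60 and 1.54 FPKM in N2 and at 3.12, 2.67 and 3.47 FPKM in the mutant. The groups were apart and the mutant mean 1.87-fold higher (log2 change 0.62, SE 0.14, limma adjusted p = 0.00492). The processing enzymes were far more abundant. egl-3, the convertase that makes the first cuts in a precursor, was at 52.6, 59.9 and 62.7 FPKM in N2 and at 74.1, 80.9 and 65.6 FPKM in the mutant, with mutant replicate 3 close to N2 (log2 change 0.33, limma adjusted p = 0.0651). egl-21, the carboxypeptidase that trims the cut ends, overlapped, at 80.6 to 96.9 and 81.3 to 86.2 FPKM (log2 change -0.07, 95% confidence interval -0.34 to 0.19, limma adjusted p = 0.636).

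ida-1, an IA-2 family membrane protein of dense core vesicles, overlapped too, at 44.4 to 49.2 FPKM in N2 and 42.6 to 49.8 FPKM in the mutant (log2 change -0.04, limma adjusted p = 0.805). ric-19, the ICA69 homologue that acts in dense core vesicle maturation (chromosome I, 3778089 to 3781690), was at 4.46, 5.06 and 4.17 FPKM in N2 and at 3.33, 3.01 and 4.07 FPKM in the mutant. Mutant replicate 3 lay just under the lowest N2 library. The log2 change of -0.32 (95% confidence interval -0.66 to 0.02) did not pass the test (limma adjusted p = 0.109), and did so after median-ratio scaling, at -0.54 (limma adjusted p = 0.0171). The call of unc-31 held there (0.43, limma adjusted p = 0.0220) but was lost after quantile normalisation (0.26, limma adjusted p = 0.113).

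Transmitter genes rose in 5 of 7 tested, beside 34.6% of all tested genes, and 2 of the 5, cat-1 and cat-2, had to be higher to be tested. After median-ratio scaling 1 of 6 rose. unc-17, the vesicular acetylcholine transporter, and cha-1, choline acetyltransferase, lie on the same strand of chromosome IV, at 3618259 to 3624699 and 3613931 to 3624697. They share a first exon of 66 bases (3624632 to 3624697), which is 3.43% of the exonic length of unc-17 and 3.18% of that of cha-1. How fragments of that exon were assigned to the pair is not stated by the labels. unc-17 was at 2.10, 1.89 and 2.04 FPKM in N2 and at 4.30, 5.48 and 4.004 FPKM in the mutant. All mutant libraries were far above the N2 range, with a 2.29-fold higher mean and a log2 change of 0.89 (SE 0.15, limma adjusted p = 0.00119). That is the highest of the 31 genes with a pseudocount of 1, but with 0.01 it was 1.18 against 1.80 for cat-2. cha-1 was at 1.93, 2.37 and 1.85 FPKM in N2 and at 3.08, 3.08 and 2.98 FPKM in the mutant, 1.49-fold higher (log2 change 0.41, SE 0.13, limma adjusted p = 0.0289).

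The call of cha-1 was lost after median-ratio scaling (0.22, limma adjusted p = 0.244), with a replicate block (limma adjusted p = 0.0701) and without N2 replicate 1 or 3 or any mutant replicate (limma adjusted p = 0.0503 to 0.105). That of unc-17 held in all 15 fits. Of 7 other acetylcholine handling genes, 3 rose and 4 had no call, with a median log2 change of 0.35. The choline transporter gene cho-1, which returns choline to the terminal, was at 1.01 to 1.15 FPKM in N2 and 2.43 to 3.04 FPKM in the mutant (log2 change 0.83, limma adjusted p = 0.000702). The acetylcholinesterase gene ace-3 was at 0.396 to 0.651 and 1.84 to 2.80 FPKM (1.097, limma adjusted p = 0.000348) and was tested only because its mutant libraries passed the filter, and snf-6, a transporter gene, had a log2 change of 0.61 (limma adjusted p = 0.0200).

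For GABA, unc-25 rose and unc-47 did not pass the test. unc-25, glutamic acid decarboxylase (chromosome III, 12942651 to 12949883), was at 12.2, 10.8 and 10.6 FPKM in N2 and at 18.3, 14.7 and 17.2 FPKM in the mutant, 1.497-fold higher, with mutant replicate 2 nearest to N2 (log2 change 0.54, SE 0.14, limma adjusted p = 0.0129). Its call was lost without mutant replicate 1 or 3 (limma adjusted p = 0.0803 and 0.0582) and after median-ratio scaling (0.28, limma adjusted p = 0.0957). unc-47, the vesicular GABA transporter, was at 0.914, 1.00 and 0.912 FPKM in N2 and at 1.15, 1.27 and 1.45 FPKM in the mutant, without overlap (log2 change 0.23, limma adjusted p = 0.123). unc-30, the transcription factor gene that specifies GABA motor neurons, rose from 0.415 ± 0.136 to 1.59 ± 0.432 FPKM (SD, n = 3 each; limma adjusted p = 0.00151), and it passed the filter only through the mutant libraries, so it had to be higher to be tested. eat-4, the vesicular glutamate transporter, was at 1.76 to 2.65 FPKM in N2 and 2.73 to 3.15 FPKM in the mutant (log2 change 0.27, limma adjusted p = 0.167).

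The monoamine genes were the lowest of the set in N2. The log2(FPKM + 1) scale understates the change of genes at such levels. cat-1, the vesicular monoamine transporter (chromosome X, 5705690 to 5710737), was at 0.873, 0.793 and 0.862 FPKM in N2 and at 1.42, 1.97 and 1.43 FPKM in the mutant, 1.91-fold higher (log2 change 0.50, limma adjusted p = 0.0115). cat-2, the tyrosine hydroxylase of dopamine synthesis (chromosome II, 257819 to 261074), was at 0.546, 0.316 and 0.1704 FPKM in N2 and at 1.25, 1.06 and 1.00 FPKM in the mutant, 3.21-fold higher (0.65, limma adjusted p = 0.00360). Both genes lay apart between the genotypes, and the N2 libraries of cat-2 differed among themselves more than those of cat-1. tph-1, the tryptophan hydroxylase of serotonin synthesis (chromosome II, 7549335 to 7551983), was at 0.259, 0.144 and 0.275 FPKM in N2 and at 0.812, 0.670 and 0.618 FPKM in the mutant, a 3.10-fold higher mean. It was tested only with no filter, where its log2 change was 0.47 (limma adjusted p = 0.00322). After median-ratio scaling the call of cat-1 was lost (0.35, limma adjusted p = 0.0643) and cat-2 was under the filter, and when any mutant replicate was left out neither reached the filter.

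Other monoamine genes moved both ways. The serotonin reuptake transporter gene mod-5 was at 0.378 to 0.494 FPKM in N2 and 1.74 to 1.94 FPKM in the mutant (log2 change 0.97, limma adjusted p = 0.000162), and the catechol-O-methyltransferase family gene comt-2 rose from 0.395 ± 0.0889 to 6.41 ± 0.557 FPKM (SD, n = 3 each; log2 change 2.41, limma adjusted p = 4.89e-06). Every N2 library of both genes was under 1 FPKM, so they too had to be higher to be tested. The dopamine reuptake transporter gene dat-1, chosen after its values were seen, was at 0.567 to 1.03 and 1.57 to 1.87 FPKM (0.64, limma adjusted p = 0.00477). tbh-1, tyramine beta-hydroxylase of octopamine synthesis, fell, from 17.97, 7.15 and 11.1 FPKM in N2 to 0.831, 0.752 and 0.645 FPKM in the mutant (log2 change -2.82, limma adjusted p = 6.37e-05). tdc-1, tyrosine decarboxylase, which acts just before it, and bas-1, the decarboxylase shared by dopamine and serotonin synthesis, fell by 0.89 and 0.87 on the log2 scale (limma adjusted p = 0.0170 and 0.00115). The choice of tdc-1 and bas-1 followed a look at their values. tdc-1 and tbh-1 are known to be made in the gonadal sheath as well as in neurons.

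Both genes grouped as pan-neuronal were higher in every mutant library than in every N2 library, as were 40.4% of all tested genes. Of the other members taken to mark neurons, rab-3, snb-1 and ric-4 were too, unc-64 and snt-1 overlapped, and ric-19 was lower in every mutant library. Among all these markers only rgef-1 had a call. rgef-1, a Ras exchange factor gene (chromosome V, 9556027 to 9561674), was at 1.72, 1.79 and 1.65 FPKM in N2 and at 2.67, 3.08 and 2.93 FPKM in the mutant, 1.68-fold higher (log2 change 0.52, SE 0.12, limma adjusted p = 0.00812). unc-119, which encodes a lipid-binding trafficking protein, was at 7.01, 6.42 and 6.16 FPKM in N2 and at 7.62, 9.47 and 8.93 FPKM in the mutant. Mutant replicate 1 lay nearest to N2, and the log2 change of 0.36 did not pass the test (limma adjusted p = 0.0684, and 0.0446 without N2 replicate 1, where it was 0.40). After median-ratio scaling the call of rgef-1 was lost (0.33, limma adjusted p = 0.0704). None of these neuron markers rose there, and ric-19 fell (-0.54, limma adjusted p = 0.0171).

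Ratios of 2 genes within a library do not change when a library is multiplied by 1 factor, as in median-ratio scaling, but quantile normalisation does alter them. Of 15 ratios between genes of related roles, chosen with earlier results known, 8 were higher in every mutant library than in every N2 library, 1 was lower and 6 overlapped. The order of the genes in a ratio was also a choice, so the split between higher and lower has no meaning as a direction. Some genes, such as syd-2 and snb-1, recur in several ratios, and no share over other gene pairs is given. With 3 libraries against 3 the exact two-sided permutation test cannot go below p = 0.1, and the smallest value adjusted over the 15 ratios was 0.167, so none passes a threshold of 0.05. The ratio of unc-13 to unc-18, both of whose products act on syntaxin, was 0.289, 0.332 and 0.288 in N2 and 0.498, 0.478 and 0.551 in the mutant (exact permutation p = 0.1). unc-17 to cha-1 was 1.09, 0.796 and 1.104 in N2 and 1.39, 1.78 and 1.35 in the mutant (exact permutation p = 0.1). The kinesin gene unc-104 relative to syd-2 was 1.21, 1.07 and 1.09 in N2 and 0.678, 0.698 and 0.577 in the mutant (exact permutation p = 0.1). By contrast the SNARE ratio of unc-64 to snb-1 was 0.1497, 0.167 and 0.164 in N2 and 0.160, 0.173 and 0.149 in the mutant, with overlapping libraries (exact permutation p = 1). The ratios of egl-3 to egl-21, unc-31 to ida-1, rab-3 to aex-3, tph-1 to cat-1, rgef-1 to unc-119 and ric-4 to snb-1 were higher in the mutant without overlap, the last by little, at 0.213 ± 0.00513 in N2 and 0.227 ± 0.00446 in the mutant (SD, n = 3 each).

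**Figure D3:**
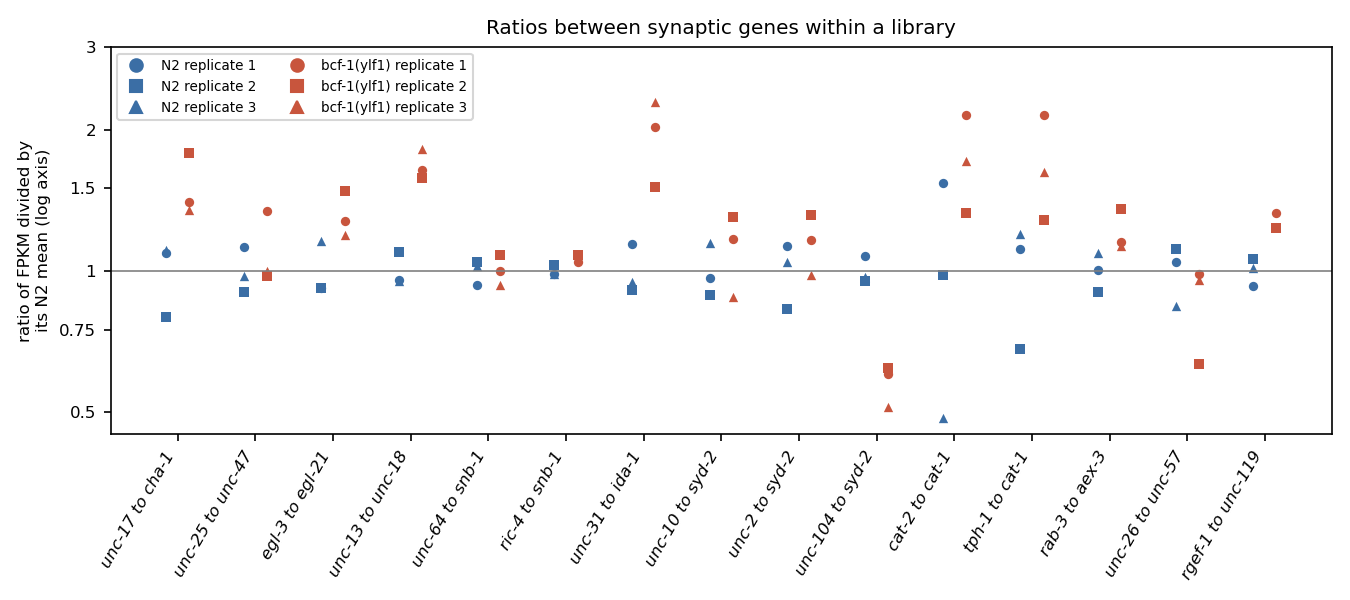
Ratio of FPKM between 2 genes in each library, divided by the mean of that ratio in N2, on a log axis, with N2 in blue and bcf-1(ylf1) in red. unc-31 to ida-1 and unc-13 to unc-18 lie above N2 in every mutant library, unc-104 to syd-2 is the only ratio with every mutant library below N2, and unc-64 to snb-1 stays near 1.

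Because the median of all tested genes was itself 0.24 higher in the mutant, the calls were also taken after 2 scalings that remove most of that shift. After median-ratio scaling 4 of 30 tested genes rose, unc-13, unc-17, sng-1 and unc-31, and 2 fell, unc-104 and ric-19, where 22.0% of all tested genes rose and 23.7% fell. After quantile normalisation 3 of 31 rose, unc-13, unc-17 and egl-30, and unc-104 and ric-19 fell, with 24.0% and 20.6% over all tested genes. unc-13 and unc-17 were called higher in all 15 fits run, and they were the only members of the set for which this held. The median change of the set was 0.08 above that of all tested genes under each of these scalings.

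**Figure D4:**
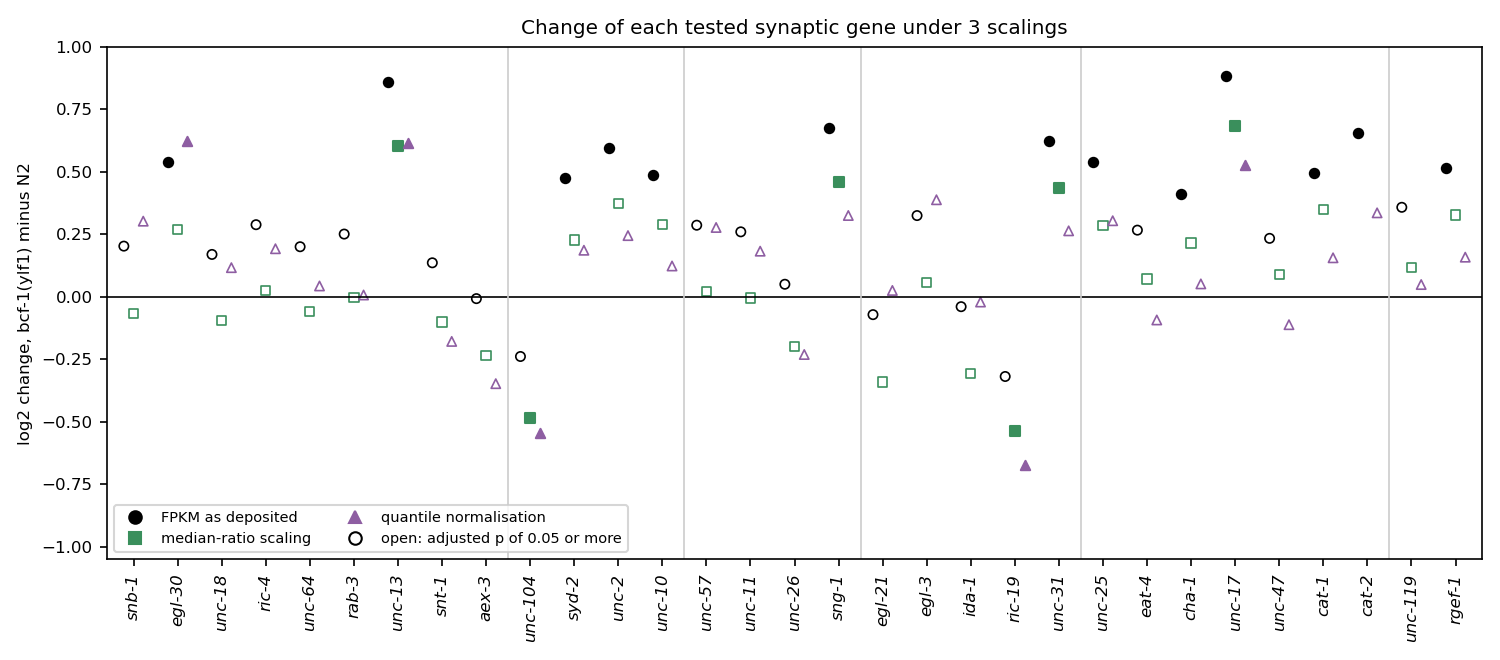
Log2 change of the 31 genes, mutant minus N2, with the deposited FPKM (black circles), after median-ratio scaling (green squares) and after quantile normalisation (purple triangles); filled symbols have an adjusted p under 0.05. unc-13 and unc-17 are filled and above 0 under each scaling, and unc-104 and ric-19 are filled and below 0 under both added scalings.

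The wider set of synaptic and neuronal genes, 365 with a row in 16 lists, held 311 tested genes, of which 135 rose (43.4%) and 45 fell, with a median log2 change of 0.30, beside 34.6% and 15.0% of all tested genes. Of the 311, 19 passed the filter only through the mutant libraries and had to be higher to be tested. After median-ratio scaling 87 of 306 rose and 59 fell, beside 22.0% and 23.7% of all tested genes, and without mutant replicate 1 the rises numbered 85 of 291 tested. Of 23 other release machinery genes, 5 were higher and 5 lower (21.7% each), beside 34.6% and 15.0% of all tested genes. After median-ratio scaling 4 were higher and 6 lower, and after quantile normalisation 5 and 8. In this list the rabphilin gene rbf-1 rose from 3.49 ± 0.242 to 7.36 ± 0.579 FPKM (limma adjusted p = 0.000813). snb-2 and snt-5, further synaptobrevin and synaptotagmin family genes, fell by 0.99 and 0.93 on the log2 scale (limma adjusted p = 0.000689 and 0.000737). Genes of the active zone and synapse assembly rose in 14 of 28 and fell in 1, but the rises were 4 after median-ratio scaling, 7 after quantile normalisation and 8 with a replicate block. The synaptic adhesion genes syg-2 and syg-1 rose by 1.11 and 0.89 log2 units, and lin-10, a PDZ protein gene that is used in the vulva as well, fell by 1.02 (limma adjusted p = 0.000357, 0.000987 and 0.000281). Of 13 other recycling genes, 3 rose (23.1%, beside 34.6% of all tested genes), among them dpy-23 and epn-1 of clathrin coats (0.58 and 0.44 log2 units). rme-1, an endocytic recycling gene abundant in the intestine, fell from 246 ± 30.2 to 126 ± 5.06 FPKM. For these 13 genes, 0 rose and 1 fell after median-ratio scaling, and 4 rose and 2 fell after quantile normalisation.

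Of 11 tested calcium and sodium leak channel genes, 6 rose, led by unc-68, the ryanodine receptor, cca-1, a T-type channel, and egl-19, the L-type channel of muscle and neurons, with log2 changes of 0.92, 0.89 and 0.81. The rises were 3 of 11 after median-ratio scaling, after quantile normalisation and with a replicate block, against 6 of 11 beside 34.6% of all tested genes with the deposited values and no block. In the G protein list 6 of 20 rose and 1 fell. eat-16 and rgs-3, which encode regulators of G protein signalling, and the phosphodiesterase gene pde-4 rose by 0.83, 0.73 and 0.75 log2 units. Of 17 other genes of peptide processing and dense core vesicles, 6 rose (35.3%, again beside 34.6%) and 1 fell. Both median-ratio scaling and quantile normalisation gave 4 higher and 4 lower of these 17 genes. Among them cpd-1, a carboxypeptidase D family gene, rose from 10.1 ± 0.330 to 23.6 ± 0.899 FPKM, pamn-1, the peptide amidation enzyme gene, from 10.6 ± 1.44 to 24.5 ± 3.28 FPKM, and tbc-8, which acts in dense core vesicle maturation, from 1.48 ± 0.0226 to 2.84 ± 0.165 FPKM (SD, n = 3 each).

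**Figure D5:**
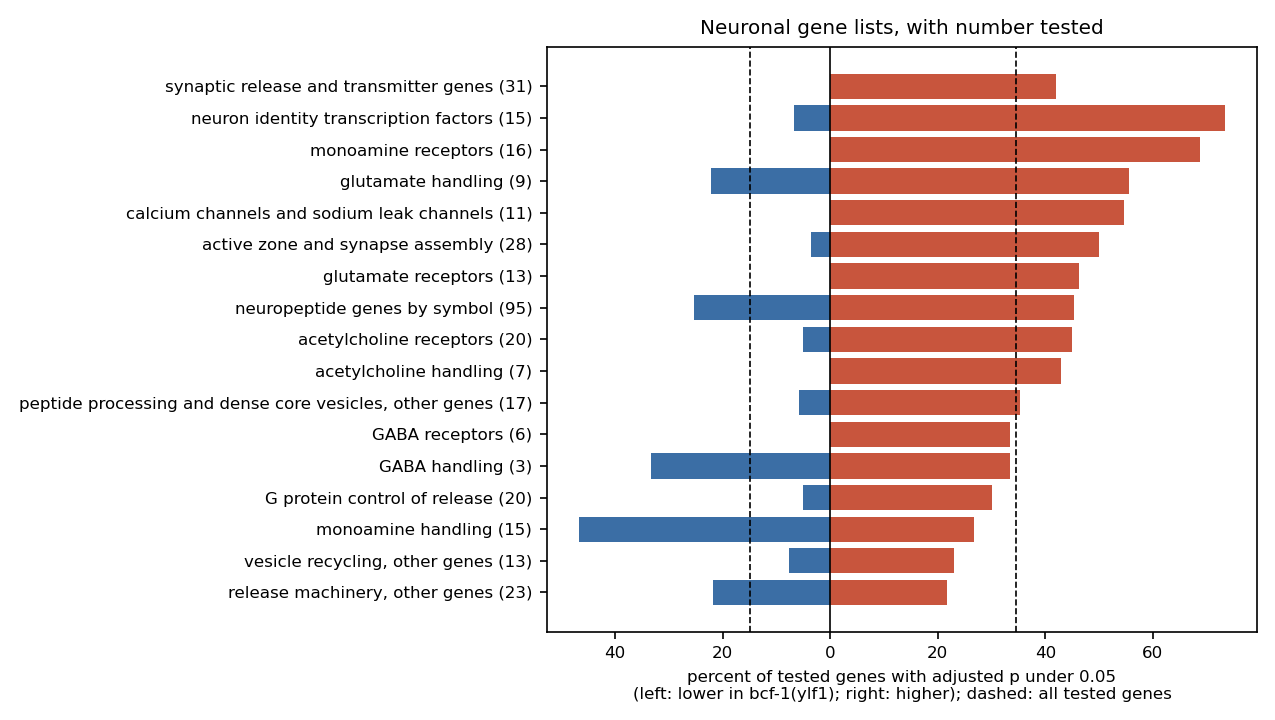
Percent of tested genes with a limma adjusted p under 0.05, higher (red, right) and lower (blue, left) in bcf-1(ylf1), for the synaptic genes and 16 further neuronal lists, with the number tested in brackets; dashed lines mark 34.6% higher and 15.0% lower over all tested genes. The synaptic genes lie at 41.9% higher, and the lists run from 21.7% to 73.3% higher.

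Receptors and identity factors rose in shares of 33.3% to 73.3% by list, beside 34.6% of all tested genes. Monoamine receptor genes rose in 11 of 16, with dop-4, ser-1 and dop-3 at log2 changes of 1.16, 0.83 and 0.79. These 3 and 2 more of the 16 passed the filter only through the mutant libraries and had to be higher to be tested. So did gar-1 below, 2 of the 13 glutamate receptor, 2 of the 15 identity factor and 5 of the 95 neuropeptide genes. With a filter on the mean over the 6 libraries, 3 of 11 glutamate receptor and 9 of 13 identity factor genes rose. Acetylcholine receptor genes rose in 9 of 20 and fell in 1, with the muscarinic receptor genes gar-1, gar-2 and gar-3 at 1.09, 0.92 and 0.79. Glutamate receptor genes rose in 6 of 13, with glc-1 at 1.58, and GABA receptor genes in 2 of 6, unc-49 and gbb-1, at 0.61 and 0.56. Transcription factor genes of neuron identity rose in 11 of 15 and fell in 1. After median-ratio scaling the rises were 10 of 16 for monoamine receptors, 4 of 20 for acetylcholine receptors with 3 lower, 3 of 12 for glutamate receptors, and 7 of 13 for identity factors with 2 lower, beside 22.0% of all tested genes. Of the 6 GABA receptor genes, both rises were lost there and 1 fell. lin-11, which also acts in the vulva, rose from 2.17 ± 0.444 to 9.30 ± 1.12 FPKM, and ceh-48, a CUT homeobox gene expressed across neurons, from 2.31 ± 0.269 to 5.89 ± 0.291 FPKM. Of 95 tested neuropeptide genes, 43 rose and 24 fell, from flp-13 at 2.53 to nlp-58 at -2.51 log2 units. Among the lists of transmitter handling, glutamate genes rose in 5 of 9 and fell in 2, monoamine genes rose in 4 of 15 and fell in 7, acetylcholine genes rose in 3 of 7, and of 3 GABA genes 1 rose and 1 fell, gta-1, the transaminase that breaks GABA down, by 0.69 on the log2 scale. Whether the share in any of these lists differs from that of the synaptic genes was not tested.

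The summed level of the 32 genes was 628, 664 and 630 FPKM in the N2 libraries and 751, 814 and 742 FPKM in the mutant libraries. N2 replicate 2 was the highest N2 library in 19 of the 32 genes and mutant replicate 2 the highest mutant library in 18. Across the 31 tested genes, the log2 change had a Spearman correlation of -0.36 with the mean level and of 0.13 with the exonic length. Over all tested genes these were -0.24 and 0.10. The genes share the same 6 libraries, so these are descriptions with no test. On the X chromosome 5 of 7 members rose, with a median log2 change of 0.49. Of all tested genes of X, 33.0% were higher and 24.5% lower, with a median of 0.09. Of these 5 members, cat-1 had to be higher to be tested, and only sng-1 kept its call after median-ratio scaling. On each of the other chromosomes 1 to 3 members rose, of 4 to 6 tested. In the WBcel235 annotation 21 of the 32 genes share no exonic base with another gene, and the largest shared part was 9.31%, in tph-1. What reads of overlapping or antisense genes add to these values was not tested.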

How the data were processed

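RNA from 6 whole-worm samples, 3 per genotype, was sequenced. The submitters' processing notes name fastp as a tool and WBcel235 as the build. No aligner or counting tool is named there, nor whether counting used strand. The deposited table gives 1 value per gene and library, read as FPKM as made by the authors; the header does not name the unit, and TPM with some rows left out is the other reading. Of 20894 rows, 19967 matched a RefSeq locus tag, which gave the symbols. A common step per read was sought in rows above 0 in only 1 library, 104 to 175 rows per library. Values times length came within 10% of such a step for 21.1% to 39.5% of these rows. Whole reads were therefore not recovered, no count test was run and the depth is unknown.

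A gene was tested where 3 or more libraries reached 1 FPKM, in limma 3.58.1 (R 4.3.3) with a mean-variance trend on log2(FPKM + 1), with no covariate, two-sided, with Benjamini-Hochberg adjustment over all tested genes and a threshold of 0.05. Log2 changes are on that scale and understate the change of low genes. Values given as -fold are ratios of mean FPKM, mutant over N2. The fit was also run on simulated data with known changes and independent noise. No outcome of that run is used here, and it does not bear on the choice of scaling. Alternatives were median-ratio and quantile scaling, pseudocounts of 0.1 and 0.01, other filters, no trend, a replicate block and leaving out each library. The genes named are the 32 members, up to 3 genes of smallest p in each list, and bcf-1; dat-1, tdc-1 and bas-1 were added with their values seen. The members and lists were chosen with earlier results of these data known.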

Additional observations from a re-analysis of the deposited data

How the results depend on the processing

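The counts of calls moved with the scaling. Median-ratio scaling gave 2975 higher and 3210 lower genes over all, against 4703 and 2035, and 87 higher among the other pathway genes, against 135. For the synaptic genes it gave 4 higher, 2 lower and a median log2 change of 0.0639, and quantile normalisation gave 3 higher and 2 lower, against 13, 0 and 0.29. Under median-ratio scaling the log2 change turned for rab-3 (-0.0025), snb-1 (-0.068), unc-18 (-0.10), unc-64 (-0.0599), snt-1 (-0.10), unc-11 (-0.0046) and unc-26 (-0.20). Under quantile normalisation it turned for snt-1 (-0.18), unc-26 (-0.23), egl-21 (0.0255), eat-4 (-0.0926) and unc-47 (-0.11). The cause was not tested.

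Leaving out 1 library gave 2877 (without mutant replicate 1) to 5720 (without N2 replicate 1) genes higher over all, 7 to 13 among the synaptic genes and 85 (without mutant replicate 1) to 136 among the other pathway genes; without mutant replicate 3 it gave 3002 over all. The sign turned within these ranges: snt-1 -0.0543 to 0.25, aex-3 -0.0447 to 0.051, unc-26 -0.0075 to 0.13, egl-21 -0.13 to 0.0024 and ida-1 -0.11 to 0.0020. None of these genes passed the test.

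Same-numbered libraries did not deviate together (correlations 0.0097, -0.07 and -0.28). Differently numbered ones had correlations of -0.195 to 0.34. With 3 libraries per genotype, these values cannot settle whether the replicate numbers pair the samples. With a replicate block 11 synaptic genes and 4309 genes over all were higher, and syd-2 and cha-1 lost their calls (limma adjusted p = 0.0688 and 0.0701). The 2 pseudocounts and the fit with no trend each left 13 synaptic genes higher. Depth is unknown, so the precision of low values, such as those of cat-2 and tph-1, cannot be given.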
